A study of Mus musculus with 188 samples.

Results

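The cells described here are the 40 mouse epidermal keratinocytes with most mRNA of the replication licensing helicase, Mcm2 to Mcm7, among cells with little mRNA of the proliferation genes Mki67 and Top2a. They are set against the 40 of those cells with least Mcm mRNA. In all 94 cells from each of 2 plates were sequenced, of which 25 had too much Mki67 and Top2a mRNA and 83 lie between the groups. The members were chosen by measured mRNA levels: CPM, a gene's reads per 1e+06 reads of all genes, was computed for each cell without spike-in rows, cells with a sum of Mki67 and Top2a of 200 CPM or more were set aside, and the rest were ranked by the summed CPM of the 6 Mcm genes. The groups are called Mcm-high and Mcm-low below, since the 6 quiescence genes given further on did not mark the second as quiescent.

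All cells were sorted as basal keratinocytes of tail interfollicular epidermis, the skin between the hair follicles, at postnatal day 20. The mice carried Lrig1-CreERT2, a tamoxifen-inducible Cre recombinase expressed from the locus of the follicle stem cell gene Lrig1, and the RosaYFP reporter. Cells were sorted as Cd34- (without a follicle bulge marker), Itga6+ (with the integrin of basal cells) and YFP- (without the reporter), 1 per well, and each became a Smart-seq2 library of full-length polyadenylated RNA on 1 of 2 plates. Both groups therefore share genotype, age, tissue and gate. The labels name no animal, so the cells count as 1 sample, cells are not replicates, and no p-value is given.

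Before a cell copies its DNA, the origin recognition complex, Cdc6 and Cdt1 load rings of Mcm2 to Mcm7 onto origins, which licenses them. Once S phase starts, Cdc45 and the GINS complex turn the loaded rings into moving helicases, and polymerases, the Pcna clamp and its loader, and a supply of deoxynucleotides complete the copy. Many of these genes are transcribed together in late G1 by E2F factors, whereas Mki67, Top2a and the mitotic genes peak later, in G2 and mitosis. In epidermis the dividing cells sit in the basal layer, and a cell that leaves it switches from keratins 5 and 14 to keratins 1 and 10.

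The summed Mcm level that chose the cells had a lowest value of 1055.8 CPM, a median of 1622 and a highest of 3303 in the Mcm-high cells. In the Mcm-low cells these were 29.5, 103.35 and 149.5 CPM. The highest cell outside the Mcm-high group stood at 1005 CPM and the lowest outside the Mcm-low group at 149.7 CPM, so the edges cut a continuous range. The cell nearest the proliferation limit from below had 194.9 CPM of Mki67 and Top2a and the nearest above had 205.8. The 6 Mcm genes, Mki67 and Top2a are left out of every comparison of levels.

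Both plates held members of both groups, 21 and 19 Mcm-high cells and 20 and 20 Mcm-low cells. Depth was higher in the Mcm-high cells, with a median of 500023 counts over genes against 373643, and all cells ranged from 79868 to 1093805. The Mcm-high cells had a median of 7861 genes with a read against 7423.5, a mitochondrial share of 7.17% against 6.08%, and 163.7 gene reads per spike-in read against 149.5. Reads carried over from other wells of the same row or column were estimated at a median of 7.49% of a cell's counts in the Mcm-high cells and 9.27% in the Mcm-low cells. Levels of a few CPM are within what such reads can give. The estimate scales with a gene's reads in other wells, so it is larger for abundant genes such as Krt10, Krt14 and Ccnd2. How far carried-over reads make up the lowest values of such genes was not tested. Markers of most other cell types were scarce in both groups. All 6 T cell genes were at 0, the summed Merkel cell genes reached at most 2.56 CPM, the Langerhans cell gene Cd207, the fibroblast genes Col1a1, Col3a1, Pdgfra and Lum and the bulge genes Cd34 and Lgr5 were at 0, and the summed endothelial genes reached at most 42.2 CPM. The 6 melanocyte genes, mainly Dct and Pmel, summed to 0 to 173.2 CPM in the Mcm-high cells and 0 to 602 CPM in the Mcm-low cells, with medians of 2.02 and 0.505 CPM. The fibroblast sum, almost wholly Dcn, reached 215 and 553 CPM, the hair follicle sum 302 and 292 CPM, and the Langerhans sum, mainly the epithelial gene Epcam, 66.3 and 200.5 CPM. The exception was the sebaceous gland list, which holds lipid synthesis genes such as Fasn and Scd1. Its 6 genes summed to a median of 359 CPM in the Mcm-high cells and 380 in the Mcm-low cells, with highest values of 1116 and 989, while its defining factor Pparg was at 0 in the Mcm-high cells and reached at most 6.86 CPM in a Mcm-low cell.

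The S phase label of the Mcm-high cells was checked with 10 genes that did not choose the cells. Since many replication genes are transcribed together with the Mcm genes in late G1, this check cannot tell S phase from late G1. A Mcm-high cell held a median of 7 of the 10 at 10 CPM or more, with a range of 2 to 10, and a Mcm-low cell a median of 2, with a range of 0 to 8. At least 5 of the 10 were present at that level in 35 of 40 Mcm-high cells, 4 of 40 Mcm-low cells, 31 of the 83 cells between and 19 of the 25 cells over the proliferation limit, whose median was also 7. Uhrf1, which brings the maintenance DNA methyltransferase to new DNA, averaged 108.8 CPM ± 125.5 (SD, n = 40 cells) in the Mcm-high cells and 3.38 ± 6.34 (n = 40) in the Mcm-low cells. Ung, which removes uracil from DNA, averaged 106.1 CPM ± 101.4 against 6.46 ± 9.50. Cdc45, which joins the helicase when origins fire, averaged 48.7 CPM ± 96.0 against 5.85 ± 23.2. The SDs were near or above the means, so single cells varied widely around them in both groups.

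The second group was not marked by genes of quiescence. Of 6 such genes, Cdkn1b, which encodes the cyclin-dependent kinase inhibitor p27, averaged 25.1 CPM in the Mcm-low cells and 34.02 in the Mcm-high cells, with opposite orders on the 2 plates. Gas1, a growth-arrest gene, averaged 176.7 against 239 CPM, also with opposite orders on the plates. The anti-proliferative gene Btg1 averaged 206.5 against 169.96 CPM, the pocket protein gene Rbl2 27.3 against 22.7, the cyclin G2 gene Ccng2 19.9 against 16.1 and the inhibitor gene Cdkn1c 1.57 against 0.554. Ccng2 and Cdkn1c also had opposite orders on the plates, and none of the 6 genes differed by 1.5-fold or more in the same direction on both. Lower mRNA of G1 to S regulators, the other sign of quiescence looked for, was seen in part. Of 8 such genes compared, 3 were at least 1.5-fold higher in the Mcm-high cells on both plates and none was lower. These 3 included the D-type cyclin gene Ccnd2 and its kinase gene Cdk4, which the Mcm-low cells still held at 852 and 229 CPM.

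Genes were then compared by size alone. A gene was called if the ratio of group means, with 1 CPM added to each, was at least 1.5-fold in the same direction on plate 1, on plate 2 and over both. Of 3677 genes with a mean of at least 50 CPM over all cells, 323 (8.78%) were called, 209 of them (5.68% of all compared) higher in the Mcm-high cells and the others (3.1%) lower. On plate 1 alone 18.5% were higher and on plate 2 alone 19.1%, so most ratios of that size on 1 plate did not recur on the other. With every cell thinned to 79868 counts before ranking, 353 genes were called, 234 of them higher. The 4 lists of replication genes (origin licensing, replication fork, nucleotide supply and chromatin replication) held 96 genes, of which 56 were abundant enough to compare. Of those 56, 30 were higher, which is 53.6% beside the background of 5.68%, and none was lower. The 50 CPM minimum was taken over all cells, so a gene high in 1 group can enter through that group. Hells, for example, averaged 52.02 CPM over all cells but 30.4 in the cells between and 7.18 in the Mcm-low cells. The share of 53.6% may be raised by this, and how far was not tested. The median log2 ratio of all genes compared was 0.06. Scaled to spike-in reads with the same cells, the median of all genes was 0.27 and the higher share of calls went from 64.7% to 89.3%. With the cells ranked again on that scale these were 0.68 and 98.3%, so the number of higher and lower genes depends on what a cell's reads are divided by.

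**Figure D1:**
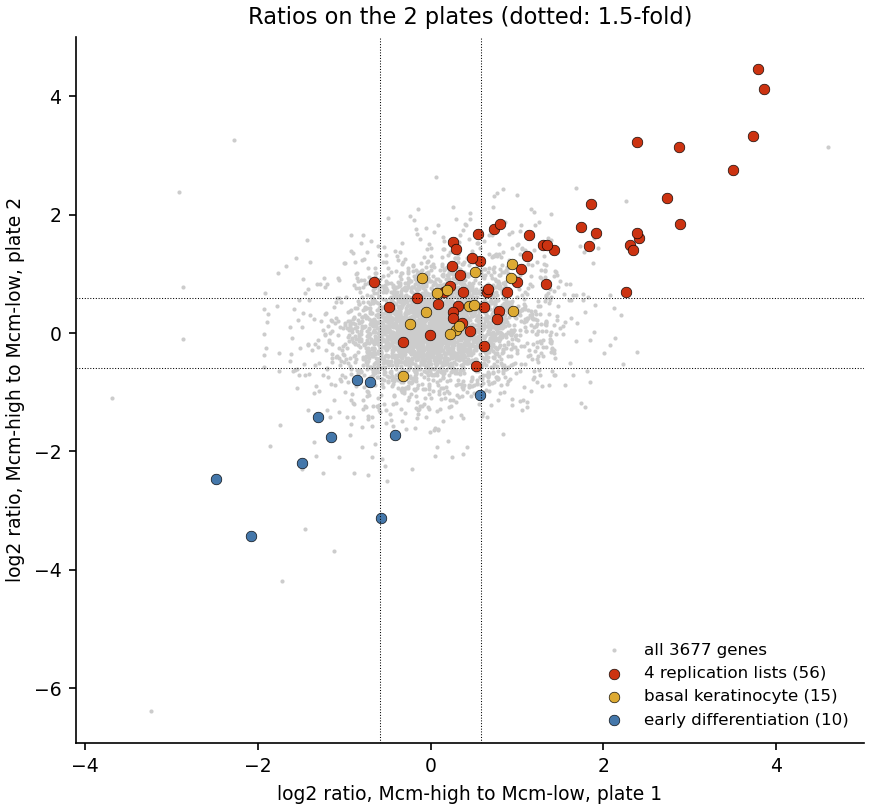
Log2 ratio of Mcm-high to Mcm-low means on plate 1 (x axis) and plate 2 (y axis) for 3677 genes, 1 point each; dotted lines mark 1.5-fold. The 56 replication genes (red) reach the upper right corner, the 10 early differentiation genes (blue) lie low, and the 15 basal keratinocyte genes (yellow) stay near the middle.

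Summed over the 96 replication genes, a Mcm-high cell had from 4301 to 17650 CPM with a median of 10258, and a Mcm-low cell from 2159 to 7718 with a median of 5072. The sum was above the highest Mcm-low cell in 34 of 40 Mcm-high cells and in 14 of the 83 cells between. The number of these genes at 10 CPM or more was a median of 67 per Mcm-high cell and 44.5 per Mcm-low cell. Over the cells under the limit (n = 78 on plate 1 and 85 on plate 2) the Mcm sum and the replication sum had a Spearman's rho of 0.72 (0.70 on plate 1, 0.73 on plate 2), and the Mcm sum and depth 0.17. All these values share a cell's library. Inside the Mcm-high group (n = 40 cells) the rho of Mcm and replication sums was 0.48, but the rho with depth was 0.44 and with the estimated share of carried-over reads -0.45. How far those move the relation inside the group was not tested. The 20 Mcm-high cells with most Mcm mRNA had median sums of 3876 CPM for the fork list and 989 for the licensing list, against 3002 and 614 in the other 20, while nucleotide supply differed less, at 2590 and 2512.

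**Figure D2:**
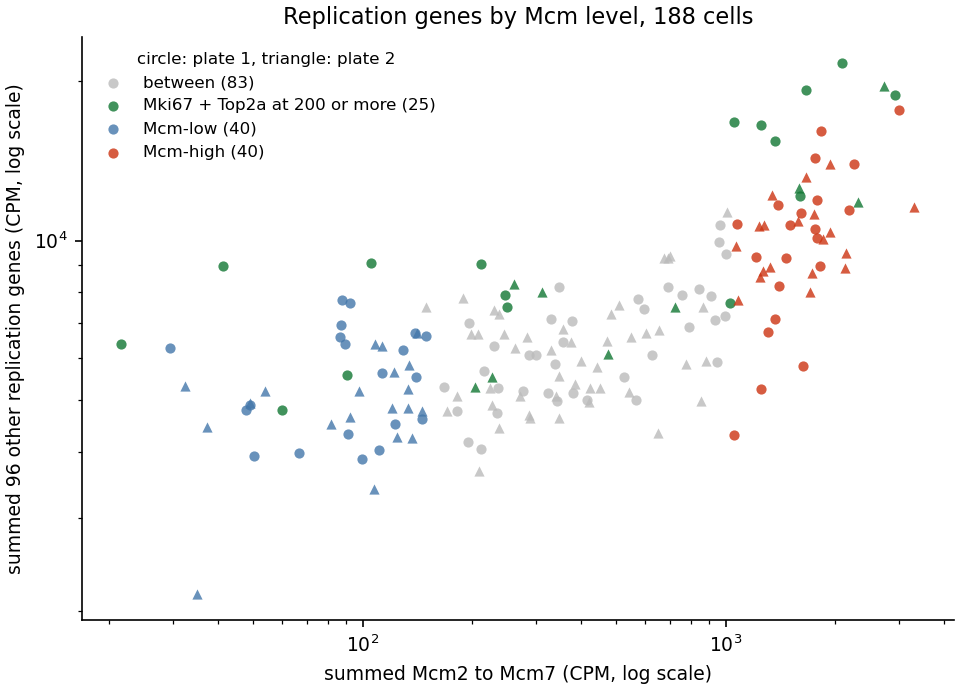
Each point is 1 cell: summed Mcm2 to Mcm7 (x axis, CPM, log scale) against the sum of 96 other replication genes (y axis, CPM, log scale), by group and plate. In 34 of 40 Mcm-high cells (red) the replication sum is above that of every Mcm-low cell (blue).

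Among the genes of the replication fork, 12 of the 17 compared were higher in the Mcm-high cells and none was lower, with a median log2 ratio of 1.07 (1.12 on plate 1, 1.31 on plate 2). Gins2, a subunit of the GINS complex that activates the helicase, ranged from 0 through a median of 74.99 to 448 CPM in the Mcm-high cells and from 0 through 4.58 to 22.3 CPM in the Mcm-low cells. The groups overlapped at the bottom only: 26 of 40 Mcm-high cells were above every Mcm-low cell. Its means were 108.9 CPM ± 112.1 and 5.32 ± 4.43 (SD, n = 40 cells each), a log2 ratio of 4.12 (3.80 and 4.46 by plate). A read of Gins2 was left in 80% of Mcm-high and 45% of Mcm-low cells once every cell was thinned to 79868 counts.

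Lig1, the ligase that joins Okazaki fragments, ran from 6.04 through 110.1 to 890 CPM in the Mcm-high cells and from 0 through 8.72 to 143.2 CPM in the Mcm-low cells. Only 14 Mcm-high cells were above the highest Mcm-low cell, and the log2 ratio was 2.80 (2.40 and 3.23 by plate). Rpa2, part of the protein that coats single-stranded DNA, had medians of 131.045 and 6.81 CPM and a log2 ratio of 3.01. Prim1, the catalytic subunit of primase, had medians of 103.5 and 10.2 CPM and a log2 ratio of 2.03. The clamp and its loader were both higher: Pcna, the sliding clamp, had a log2 ratio of 1.39, and the loader subunits Rfc1, Rfc2 and Rfc3 had 0.78, 1.03 and 2.01.

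Pcna differed from the others in its floor. It ranged from 0 through 247 to 617 CPM in the Mcm-high cells and from 5.26 through 77.4 to 295 CPM in the Mcm-low cells, and 37 of 40 Mcm-low cells held 10 CPM or more. Its share of cells at that level, 97.5% against 92.5%, thus hardly separated the groups while its level did. Carried-over reads rise with a gene's abundance, and their part in this floor was not tested. Of the other fork genes called, Tipin, part of the fork protection complex, had a log2 ratio of 1.94, the polymerase delta subunit Pold2 1.21, the checkpoint scaffold Topbp1 1.07 and the RNase H2 subunit Rnaseh2a 0.96. Pole3, a histone-fold subunit of polymerase epsilon, was not past the rule, with medians of 160.9 and 148.8 CPM and a log2 ratio of 0.27.

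Genes of nucleotide supply were higher in 9 of 16 compared and lower in none, with a median log2 ratio of 1.21 (1.00 and 1.40 by plate). Tk1, the thymidine kinase of cycling cells, ran from 0 through 89.5 to 519 CPM in the Mcm-high cells and from 0 through 4.64 to 100.3 CPM in the Mcm-low cells. In 19 Mcm-high cells it was above every Mcm-low cell, and the log2 ratio was 3.19. Tyms, which makes thymidylate, and Dut, which removes dUTP, had log2 ratios of 1.77 and 1.82. Dtymk, which phosphorylates thymidylate, had 1.42.

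Rrm2 and Rrm1, the small and large subunits of ribonucleotide reductase, were found in different numbers of cells. Rrm2 ranged from 0 through 8.86 to 621 CPM in the Mcm-high cells and from 0 through 3.68 to 283 CPM in the Mcm-low cells, and only 19 of 40 Mcm-high cells held 10 CPM or more. Its log2 ratio of 1.99 therefore rests on those 19 cells. Rrm1 was at 10 CPM or more in 34 of 40 Mcm-high and 21 of 40 Mcm-low cells, with medians of 87.1 and 10.6 CPM and a log2 ratio of 1.45. Other nucleotide genes varied: Ppat, the first enzyme of purine synthesis, had a log2 ratio of 1.42 and Cad, of pyrimidine synthesis, 0.68, while Paics (0.31) and Nme1 (0.26) were not past the rule.

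Chromatin replication genes were split, with 7 of 16 higher, none lower and a median log2 ratio of 0.51 (0.49 and 0.77 by plate). The largest difference among those compared was in Hells, a chromatin remodeler needed for DNA methylation, on chromosome 19. Hells ranged from 0 through 88.3 to 502 CPM in the Mcm-high cells and from 0 through 4.07 to 30.3 CPM in the Mcm-low cells, and 32 of 40 Mcm-high cells were above every Mcm-low cell. It was at 10 CPM or more in 36 Mcm-high cells (90%, exact Clopper-Pearson 95% interval 76.3% to 97.2%) and 9 Mcm-low cells (22.5%, interval 10.8% to 38.5%), intervals that cover counting error only. The means were 129.4 CPM ± 115.3 and 7.18 ± 8.42 (SD, n = 40 cells each), a log2 ratio of 3.99 (3.86 and 4.13 by plate).

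The histone and methylation genes among the 7 had smaller ratios. Nasp, a histone chaperone, was present in every Mcm-high cell, from 46.9 through 355 to 748 CPM, against 5.56 through 79.2 to 440 CPM in the Mcm-low cells, a log2 ratio of 1.37. Dnmt1, the maintenance DNA methyltransferase, had medians of 168.8 and 23.9 CPM and a log2 ratio of 1.65. Hat1, which acetylates new histone H4, had 2.22, the histone mRNA binding protein gene Slbp 1.26, the Polycomb methyltransferase gene Ezh2 1.18 and the FACT subunit gene Ssrp1 0.71. The abundant nucleosome and chaperone genes Hmgn1 (-0.24), Set (0.19) and Rbbp7 (-0.02) were not past the rule.

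Of the other licensing factors, 2 of 7 genes compared were higher, beside 5.68% of all genes, with a median log2 ratio of 0.59. Cdt1, which loads the Mcm ring, ran from 0 through 101.2 to 499 CPM in the Mcm-high cells and from 0 through 3.95 to 95.2 CPM in the Mcm-low cells, and 21 Mcm-high cells were above every Mcm-low cell. Gmnn, which encodes geminin, the inhibitor of Cdt1, ran from 0 through 74.4 to 359 CPM against 0 through 4.85 to 214 CPM. Loader and inhibitor mRNA were thus both higher, with log2 ratios of 3.56 and 2.55. The origin recognition genes Orc2 (0.38), Orc4 (0.14) and Orc6 (0.65) and the Mcm-binding gene Mcmbp (0.59) were not past the rule. Cdc6 was too scarce to enter, at a mean of 18.6 CPM against 0.813, and only 7 Mcm-high cells and no Mcm-low cell held 10 CPM or more.

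**Figure D3:**
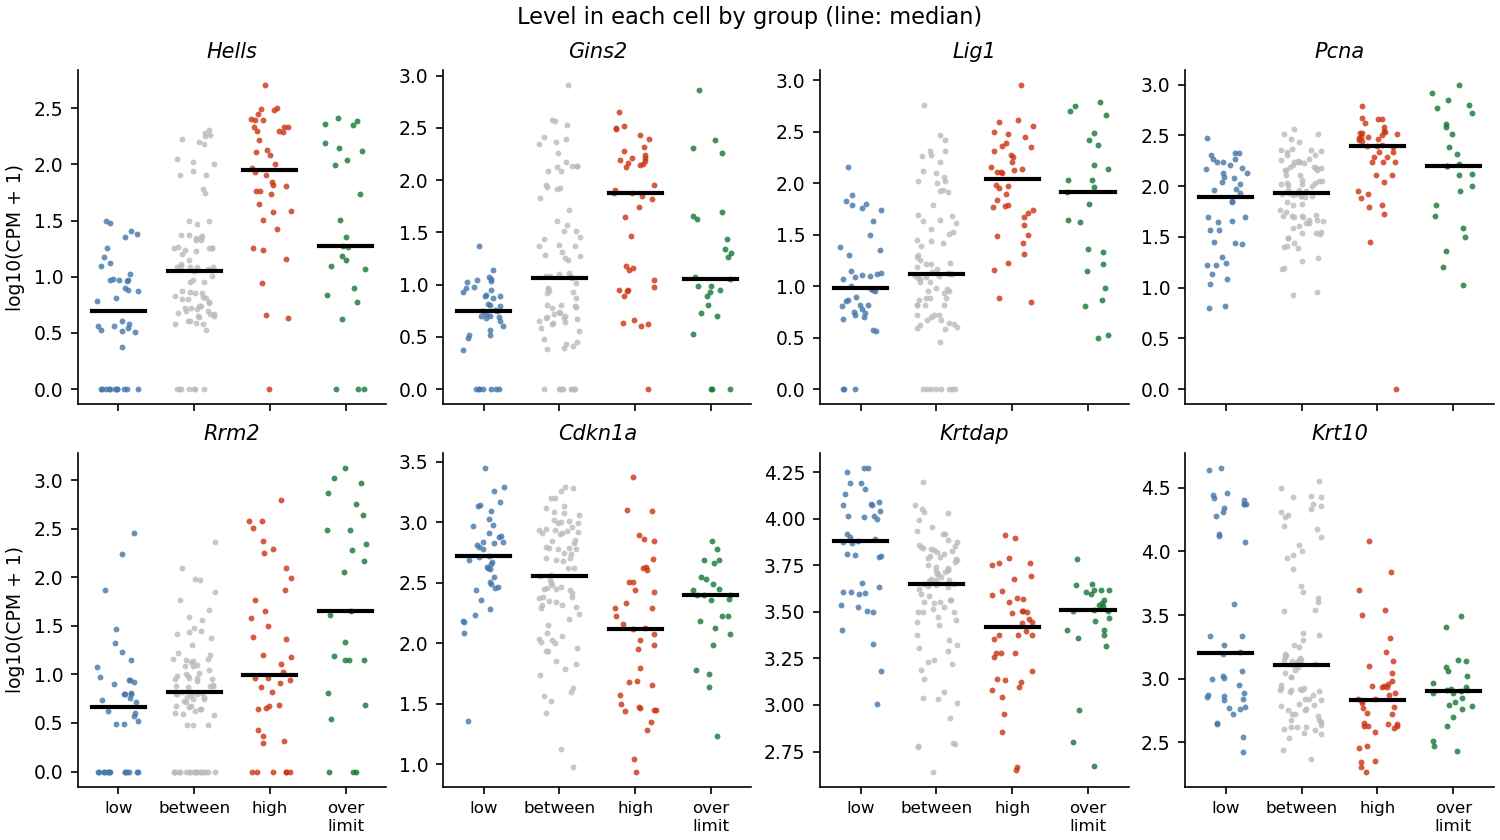
Level in each cell, as log10(CPM + 1) on axes that start at different values, of 8 genes in the Mcm-low, between, Mcm-high and over-limit cells (Mki67 and Top2a at 200 CPM or more); the line is the group's median. By median, Hells, Gins2 and Lig1 are highest in the Mcm-high cells, Rrm2 in the over-limit cells, and Krt10 and Krtdap in the Mcm-low cells.

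Since these genes were higher together, their promoters were searched for the sequence that E2F factors bind, in 300-base windows from 250 bases before to 50 after the transcription start (RefSeq, GRCm38.p6). The letters searched were TTTCCCGC, TTTCGCGC, TTTGCCGC and TTTGGCGC on either strand. A match stood in 15.5% of the higher genes with a window (80.4% of the 209), in 36% of the 25 higher replication genes with a window (of 30), in 28.6% of the 84 replication genes with a window (of 96), called or not, in 5.93% of the 2966 compared genes with a window and in 2.6% of 27025 mouse genes. Of 5 Mcm genes with a window, 4 had a match. For comparison, the letters TTTGAA, the core of the CHR element of late cell cycle genes, stood in 71% of 31 G2 and mitosis genes, in 13.1% of the higher genes and in 13.4% of the compared genes. The count is void for the lower genes, since 73.7% of them had a window. The 150 bases before the start are shown for Mcm6, a gene of the rule with 3 matches of which 2 overlap, and for 3 higher genes with different roles at the fork and in chromatin. Capitals mark the matches, and each sequence is written 5′ to 3′ along the gene's strand. Mcm6 lies at chr1:128359706-128359855 on the minus strand, Hells at chr19:38930840-38930989 on the plus strand, Topbp1 at chr9:103305177-103305326 on the plus strand and Rfc3 at chr5:151651209-151651358 on the minus strand.
Mcm6: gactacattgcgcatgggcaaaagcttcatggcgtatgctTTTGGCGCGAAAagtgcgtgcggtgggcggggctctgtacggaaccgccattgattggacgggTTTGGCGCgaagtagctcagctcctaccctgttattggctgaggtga
Hells: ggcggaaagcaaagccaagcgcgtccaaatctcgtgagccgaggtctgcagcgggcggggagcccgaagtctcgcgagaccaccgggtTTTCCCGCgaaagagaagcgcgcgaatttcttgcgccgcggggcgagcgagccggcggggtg
Topbp1: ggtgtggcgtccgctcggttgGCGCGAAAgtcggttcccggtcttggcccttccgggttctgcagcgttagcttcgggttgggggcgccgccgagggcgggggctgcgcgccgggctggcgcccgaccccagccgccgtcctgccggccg
Rfc3: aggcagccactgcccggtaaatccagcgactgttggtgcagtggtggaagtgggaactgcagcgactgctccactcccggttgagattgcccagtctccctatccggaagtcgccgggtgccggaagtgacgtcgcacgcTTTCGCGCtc
A match is a run of letters, not a measured binding site, and a gene without one may carry other forms of the sequence or lie outside the window.

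Regulators of the G1 to S step were higher in 3 of 8 compared, beside 5.68% of all genes, and lower in none. Ccnd2, which encodes cyclin D2, ranged from 203 through 1562 to 6187 CPM in the Mcm-high cells and from 57.6 through 772 to 2680 CPM in the Mcm-low cells. Its reads were found in every cell of both groups, though carried-over reads may add to the lowest values. Its log2 ratio was 1.17 (0.73 and 1.77 by plate). Cks1b, a cyclin-dependent kinase subunit, had 1.203 and Cdk4 0.68, while Ccnd1 (0.61), Myc (0.41) and Cdk6 (-0.03) were not past the rule. The E-type cyclin genes that start S phase were scarce: Ccne1 averaged 8.62 CPM ± 25.5 against 0.705 ± 2.94 and Ccne2 19.1 ± 37.8 against 1.78 ± 5.84 (SD, n = 40 cells each).

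Genes of cell cycle exit were lower in 2 of 6 compared, beside 3.1% of all genes, and higher in none. Their median log2 ratio of -0.55 became 0.16 when cells were ranked again on spike-in reads, where the median of all genes was 0.68. Cdkn1a, which encodes the kinase inhibitor p21, ranged from 7.70 through 130.2 to 2363 CPM in the Mcm-high cells and from 21.9 through 519 to 2803 CPM in the Mcm-low cells. The ranges overlapped almost wholly, and 1 Mcm-low cell was above every Mcm-high cell. The log2 ratio of means was -1.204 (-0.96 and -1.41 by plate). Pdcd4, a translation inhibitor, had -0.82, and Txnip (-1.03, but -0.52 on plate 2), Btg1 (-0.28) and Klf4 (-0.10) were not past the rule.

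Late cell cycle genes were rare in both groups. Beside 5.68% of all genes higher and 3.1% lower, their list had 2 of 5 compared higher and 1 lower. The higher ones were the condensin genes Smc2 (log2 ratio 1.66) and Smc4 (1.01). The lower was Cdca3, with medians of 3.21 and 4.51 CPM. The median of these 5 was -0.35, with -0.83 on plate 1 and 0.63 on plate 2. Most of the list is too scarce to be among the 5: over the 28 of its 37 genes with a mean of at least 10 CPM the median was 0.68. Summed over the list, a Mcm-high cell had a median of 518 CPM and a Mcm-low cell 273, and 32 of 40 Mcm-high cells were above the Mcm-low median, while the over-limit cells had a median of 3580. Cdc20, the activator of the anaphase ubiquitin ligase, averaged 11.1 CPM in the Mcm-high cells, 14.4 in the Mcm-low cells and 339 in the 25 cells over the proliferation limit. Because the rule limits Mki67 and Top2a in both groups, a low level of their late companions is in part fixed by the choice.

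The same genes were compared with the 25 cells over the proliferation limit, a mixed group. Over these cells the late cell cycle sum ran from 87.6 to 13913 CPM, and 18 of 25 were above every Mcm-low cell. These cells had Mcm sums of 21.6 to 2917.5 CPM. Against them, 2 of the 30 higher replication genes, Rpa2 and Cad, were at least 1.5-fold higher in the Mcm-high cells on both plates, beside 4.32% of all genes compared, and 3, Rrm1, Rrm2 and Tk1, were lower, beside 2.75%. The count of 2 is near the share of all genes. The 30 genes were picked by their level in these same Mcm-high cells, which leans the comparison toward that group. Rpa2 averaged 208 CPM in the Mcm-high cells and 95.02 in the over-limit cells, whereas Rrm2 averaged 73.1 and 260.3. Tk1 averaged 125.1 and 236 CPM and Rrm1 115.8 and 186.1. The initiation gene Gins2 averaged 108.9 and 65.8 CPM and Hells 129.4 and 71.6, differences of 1.5-fold or more over both plates but not on each. Tyms was in the same class the other way, with 91.8 and 163.6 CPM. The means of Cdt1 (118.5 and 119.8 CPM), Lig1 (152.5 and 154.3) and Dut (185.6 and 193) were near equal, with opposite orders on the 2 plates. Their medians in Mcm-high and over-limit cells were 101.2 and 21.9 CPM for Cdt1, 110.1 and 81.2 for Lig1 and 150.05 and 167.5 for Dut. The over-limit cells were shallower, with a median of 268637 counts, and 13.3% of their counts were estimated to be carried over; the part of either in these differences was not tested.

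**Figure D4:**
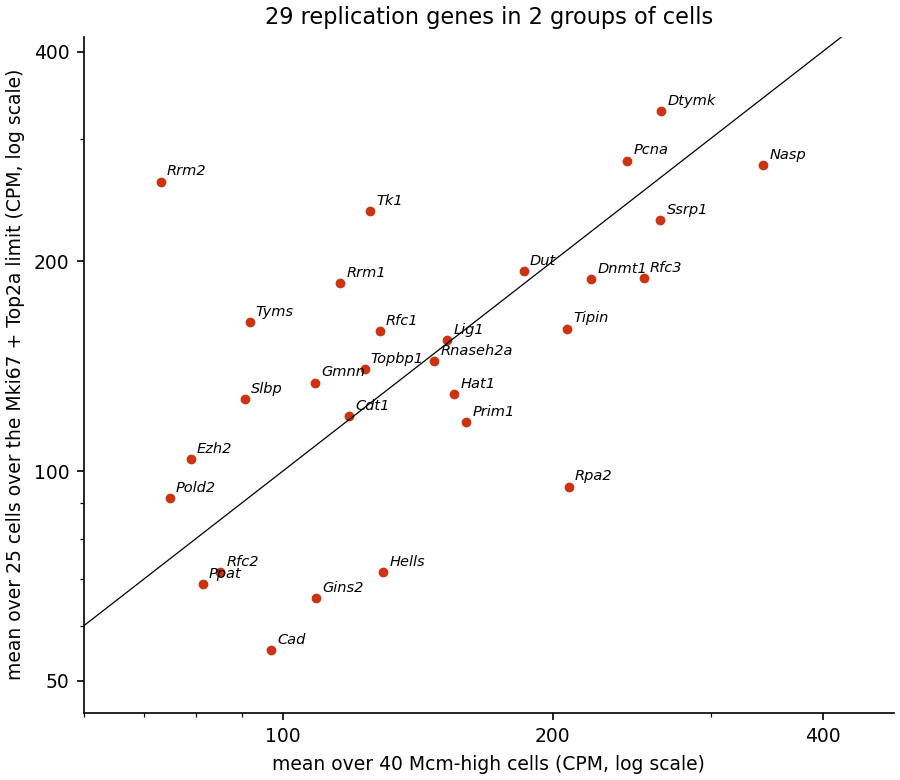
Means of 29 of the 30 higher replication genes in the 40 Mcm-high cells (x axis, CPM, log scale) and the 25 cells over the Mki67 and Top2a limit (y axis, CPM, log scale); the line marks equal levels. Rrm2, Tk1 and Rrm1 lie above the line and Rpa2, Cad, Gins2 and Hells below it.

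The Mcm-low cells held more mRNA of early differentiation. Of 10 genes of that list compared, 7 were lower in the Mcm-high cells, beside 3.1% of all genes, and none was higher, with a median log2 ratio of -1.42 (-1.004 and -1.74 by plate). Krt10, the keratin of cells leaving the basal layer, ranged from 185.4 through 678 to 11997 CPM in the Mcm-high cells and from 266 through 1586 to 45289 CPM in the Mcm-low cells. The lower ends overlapped, and 14 Mcm-low cells were above every Mcm-high cell. Its log2 ratio was -2.85 (-2.08 and -3.43 by plate). Krtdap, a secreted differentiation-associated peptide gene, ran from 449 through 2628 to 8226 CPM against 1008 through 7556 to 18765 CPM, and 17 Mcm-low cells were above every Mcm-high cell.

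The other 5 were Mt4, a metallothionein of stratified epithelia, with a log2 ratio of -2.49, the secreted protein gene Sbsn with -1.87, the skin calmodulin Calm4 with -1.38, Dmkn with -0.83 and the surface antigen gene Ly6d with -0.78. Krt1, the partner of Krt10, had -2.15 but missed the rule at -0.58 on plate 1. Krt2, a keratin of the upper layers, had -2.47, and Ly6g6c, the gene with the lowest ratio of the comparison, averaged 11.3 CPM ± 19.7 against 429 ± 1177 (SD, n = 40 cells each). Fabp5, a fatty acid binding protein of differentiating keratinocytes, averaged 57.6 against 366 CPM, and Acer1, an epidermal ceramidase, 13.9 against 154.9 CPM, with 8 Mcm-low cells of each above every Mcm-high cell. These means rest on a minority of Mcm-low cells with very high values, as the SD of Ly6g6c shows.

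Basal keratinocyte genes differed little by group mean, with a median log2 ratio of 0.37. Of 15 compared, 2 were higher, the laminin chain genes Lamb3 (0.93) and Lama3 (1.06), beside 5.68% of all genes. Krt14 ranged from 13155 through 34187 to 68338 CPM in the Mcm-high cells and from 1778 through 31984 to 53819 CPM in the Mcm-low cells, a log2 ratio of 0.37 (0.08 and 0.68). No Mcm-high cell had the low Krt14 of the lowest Mcm-low cells. The Mcm-low group was mixed in this gene. Its 25 cells at or over the median Krt10 of cells within the proliferation limit had a median of 17998 CPM of Krt14. The 15 under that Krt10 level had 41145 CPM. In 15 Mcm-low cells and 1 Mcm-high cell the summed early differentiation genes exceeded the summed basal genes. Krt5 (0.43), Krt15 (0.37), Col17a1 (0.22) and Itga6 (0.17), the integrin used in the sort, were not past the rule.

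Because Krt10 and Mcm mRNA went opposite ways, the comparison was repeated in the 81 cells under the median Krt10 of all cells within the proliferation limit, 993 CPM. Of the Mcm-high cells 30 of 40 fell under it and of the Mcm-low cells 15 of 40. The 20 highest and 20 lowest cells by Mcm within the 81 gave 399 called genes, 233 of them higher (6.34% of all compared) and the others lower (4.51%), and held 20 of the Mcm-high and 15 of the Mcm-low cells. Fork genes were higher in 13 of 17 with a median log2 ratio of 1.32, nucleotide genes in 8 of 16 with 1.11 and chromatin replication genes in 6 of 16 with 0.59. The early differentiation list had a median of -0.24 with 1 of 10 lower, Krtdap (-0.74), against -1.42 with 7 of 10 lower in the 40 to 40 comparison. Krt10 is a member of that list and chose these cells, so a smaller difference in the list is in part fixed by the choice. The basal list went from 0.37 to -0.17, with 2 lower and none higher.

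Single genes behaved in 3 ways in these Krt10-poor cells. Gins2 (log2 ratio 4.46), Gmnn (4.34), Hells (3.36), Cdt1 (3.05) and Pcna (1.32) were again past the rule, and so was Cdkn1a at -1.77, with Btg1 (-0.82) now also lower. Ccnd2 was past it at 0.74, and Tubb5 (1.30) and Dut (1.29) were not, since they missed it on 1 plate. Krt2 (0.60), Acer1 (1.16), Fabp5 (0.56), Them5 (0.62) and Oas1f (0.075) had ratios of the opposite sign, and Ly6d (-0.04) and Krt14 (-0.09) were near 0. The ratios of Krt2, Fabp5 and Oas1f here had opposite signs on the 2 plates. Acer1 and Them5 were above 0 on both plates, Acer1 at means of only 10.1 and 4.00 CPM. Of the 209 higher genes 86 (41.1%) were higher here too, and of the lower genes 39 (34.2%) were lower. The shared genes were 36.9% of the higher and 23.5% of the lower genes of the Krt10-poor cells.

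**Figure D5:**
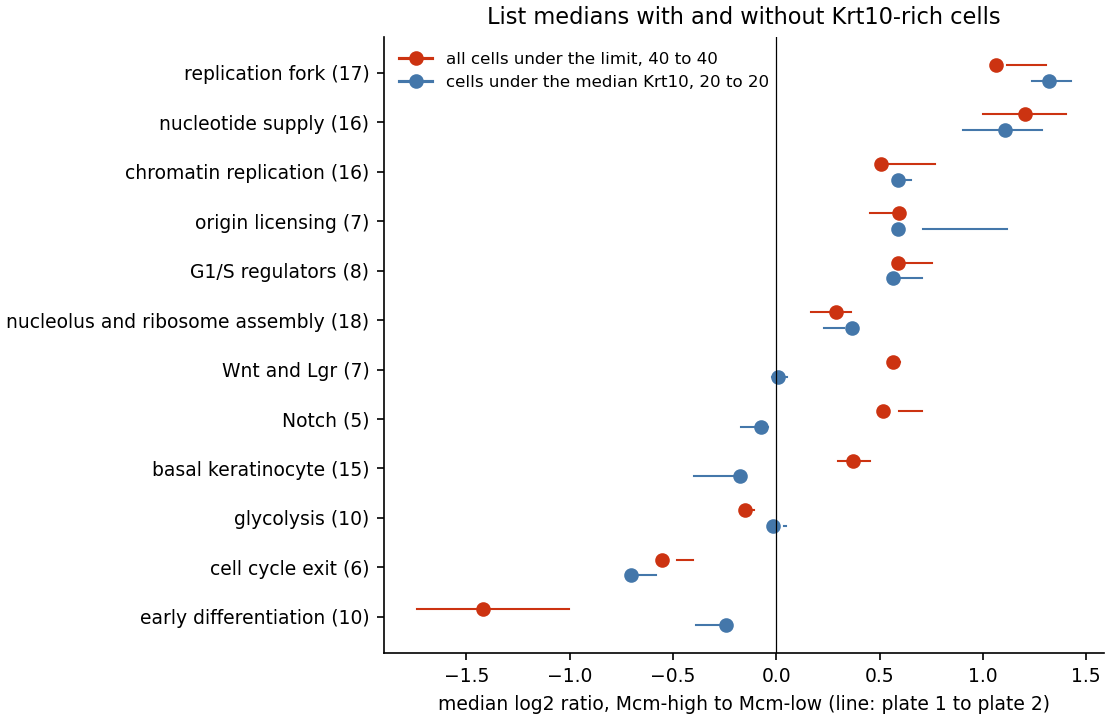
Median log2 ratio of Mcm-high to Mcm-low means for 12 gene lists (number of genes compared in parentheses) in 40 against 40 cells (red) and in 20 against 20 cells under the median Krt10 (blue); points are the values over both plates and lines run from the plate 1 to the plate 2 value. The 4 replication lists stay above 0 in both. Early differentiation, a list that holds Krt10, goes from -1.42 to -0.24 and basal keratinocyte from 0.37 to -0.17.

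Signalling lists differed by few genes, to be set beside the 5.68% of all genes compared that were higher. In the Wnt list 2 of 7 were higher, the ligand gene Wnt10a (log2 ratio 1.02) and the receptor gene Lgr4 (1.24), with a median of 0.56 that was 0.01 in the Krt10-poor cells. Wnt10a ranged from 10.5 through 304 to 1075 CPM in the Mcm-high cells and from 12.7 through 93.7 to 1107 CPM in the Mcm-low cells, so the medians differed while the ranges were alike. Among Notch genes the ligand genes Jag2 (0.73) and Dlk2 (1.03) were higher in a list of 5, with a median of 0.52 that was -0.07 in the Krt10-poor cells, while the receptor gene Notch1 (0.24) and the target Hes1 (-0.75, but -0.28 on plate 2) were not past the rule. Neither EGF receptor gene compared was called.

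Growth genes also differed little, with counts to be set beside the 5.68% of all genes that were higher and the 3.1% that were lower. Of 18 genes of the nucleolus and ribosome assembly 3 were higher, Polr1a (1.57), the large subunit of RNA polymerase I, Nop56 (0.74) and Nolc1 (0.67), with a list median of 0.29. In glycolysis 1 of 10 was lower, Pfkl (-1.10), with a list median of -0.15 that was 0.64 with cells ranked again on spike-in reads, still under the 0.68 of all genes there, and in cholesterol synthesis 1 of 7 was lower, Fdft1 (-1.29), with medians of opposite sign on the plates. None of 8 immediate early and heat shock genes was called. Krt16, a keratin of wounded epidermis, was lower (-2.28), Krt6a had -2.27 on plate 1 and 3.26 on plate 2, and the sebaceous gland gene Mgst1 was lower (-0.64).

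Of the 209 higher genes 78.5% are on none of the lists. Among those with the most stable high ratio were Slfn9, a Schlafen family gene, with medians of 57.1 and 4.35 CPM and a log2 ratio of 3.80, Mtap, of methionine salvage, with 74.8 and 2.71 CPM and 1.94, and Arfrp1, a small GTPase gene, with 8.40 and 5.75 CPM and 2.21. In Arfrp1 the medians were close and 7 Mcm-high cells above every Mcm-low cell carried the difference. The cells between had a higher Arfrp1 median than the Mcm-high cells, at 12.9 CPM. They held 10 CPM or more of it in 56.6% of cells, against 47.5% of Mcm-high cells. Among the lowest were Cst6, a cystatin of the epidermal barrier, with medians of 39.5 and 150.04 CPM and a log2 ratio of -1.65, and Itgb5, an integrin subunit gene, with -1.88.

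The 10 genes whose level followed the summed Mcm level most closely over the cells under the limit were, by Spearman's rho, Hells (0.58), Cdt1 (0.58), Lig1 (0.54), Tubb5 (0.53), Gins2 (0.52), Gmnn (0.50), Tipin (0.49), Tk1 (0.49), Dut (0.48) and Dnmt1 (0.48). On the single plates these ran from 0.41 to 0.61, and all the values share the cells' libraries. Tubb5, a beta tubulin gene, is the only 1 of the 10 on no list. It ran from 96.0 through 782 to 2833 CPM in the Mcm-high cells and from 36.1 through 145.9 to 1306 CPM in the Mcm-low cells, a log2 ratio of 1.69. Tubulin genes are close copies, so its reads may be shared with others.

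Some of the named genes overlap a neighbour, and whether reads were counted by strand is unknown, which leaves the pair's reads undivided. In GENCODE M21 on GRCm38 this holds among others for Ppat and Paics (with each other), Rfc2 (with Lat2), Rnaseh2a (with Prdx2), Ssrp1 (with P2rx3), Nop56 (with Idh3b), Fdft1 (with Ctsb), Lamb3 (with Hsd11b1), Ccnd1 (with LTO1), Gins2 (with Gse1), Cdt1 (with Gm20388), Tk1 (with Afmid), Lig1 (with Zswim9), Arfrp1 (with Zgpat), Cdk4 (with Tspan31), Dlk2 (with Abcc10) and Ly6g6c (with Mpig6b). Hells, Rpa2, Pcna, Gmnn, Rrm2, Tubb5 and Krtdap overlap no other annotated gene.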

How the data were processed

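The authors deposited raw, whole-number read counts per gene for 94 single cells on each of 2 plates, per the file headers and the labels' protocols, with 49585 gene rows and 92 spike-in rows. Tools named in the submitters' processing notes are cutadapt 1.13, STAR 2.5.2b and HTSeq 0.6.0, with GRCm38; settings, strand use and annotation release: not given in the sources used here. Symbols matched 49326 identifiers. Reads carry no molecular identifiers, so intervals cover counting error only. No doublet caller was run, since 1 cell was sorted per well.

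From the counts, CPM over gene rows, group means, SDs and ratios of (mean + 1 CPM) were computed in Python 3.11.15 (numpy 2.4.6, pandas 2.3.3, scipy 1.17.1); TMM factors came from edgeR 4.0.16 (R 4.3.3). All cells form 1 group with no animal named, so no count model was fitted. Genes with a mean under 50 CPM were left out of calls. Of the called replication genes, 1 is counted but not reported here by name. The script was tested on simulated data. Carried-over reads were estimated by non-negative least squares from genes found in few wells: a well takes 22.3 per 10000 reads of its row and 23.9 of its column, and 1.35 of other wells.

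Named genes are the 15 highest and 15 lowest called genes by the plate nearer 0, up to 6 most abundant and every called gene of 27 lists (415 genes), 16 fixed genes and the 10 most like the Mcm sum; the 10 S phase and 6 quiescence markers were also named. The members and lists were chosen with earlier results of these data known. Alternatives changed the summary, pseudocount, level minimum, scaling, group size, limit, ranking, depth, carried-over reads, Krt10, doublets and plate; leaving out cells with over 20% carried-over reads and spike-in scaling of the same cells were added after seeing the data.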

Additional observations from a re-analysis of the deposited data

How the results depend on the processing

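No paired analysis was possible because all cells form 1 group. The main rule called 323 genes, 209 of them higher. For higher and lower genes, a minimum of 10 CPM gave 861 and 434, no minimum 1527 and 801, spike-in scaling 1237 and 21 (same cells, 444 and 53), 20 against 20 cells 367 and 180, plate 1 alone 684 and 462 and plate 2 alone 687 and 428; a single plate asks for no agreement between plates, and a lower minimum tests more genes. TMM scaling called 325 genes (55.7% higher), subtracting carried-over reads 391 (253 higher), and leaving out cells with over 20% of them 323 (215 higher). The fork median (1.07) was 1.28 with summed counts, 1.50 at 10 CPM, 1.67 with no minimum, 1.71 on spike-in reads (same cells 1.30), 1.43 for 20 against 20 cells, 1.32 in Krt10-poor cells and 1.24 on plate 2. Nucleotide supply was 1.80 on spike-in reads (same cells 1.51). Chromatin replication was 0.82 at 10 CPM, 0.71 with no minimum, 1.30 on spike-in reads (same cells 0.91) and 0.80 on plate 2. Early differentiation was -0.71 on spike-in reads, -1.97 for 20 against 20 cells and -0.24 in Krt10-poor cells. The basal median was 0.96 on spike-in reads (same cells 0.65), 0.66 for 20 against 20 cells, 0.48 ranked by mean log2 and -0.17 in Krt10-poor cells.

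Opposite signs arose in Krt10-poor cells for the Notch list (-0.073), Krt2 (0.60), Acer1 (1.16), Fabp5 (0.56), Them5 (0.62) and Oas1f (0.075), on spike-in reads for cell cycle exit (0.16), glycolysis (0.64, same cells 0.014) and Mgst1 (0.39), and for glycolysis with 20 against 20 cells (0.034) or thinned reads (0.014). In the Krt10-poor cells the plates disagreed in sign for Krt2, Fabp5 and Oas1f. All genes shift up on spike-in reads (median 0.68, same cells 0.27), and the spike-in values just given lie under that shift. Medians whose plates already disagreed also turned, at 10 CPM to 0.68 for G2 and mitosis and 0.065 for immediate early genes. The cause of the other changes was not tested. Of 74 named genes past the rule these 6 changed sign under any of 19 settings. Depth limits genes under 10 CPM: a gene with no read in 40 cells may still have a read in up to 7.5% of such cells.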
